A study of Homo sapiens with 15 samples.

Results

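The set described here holds 33 genes of fatty acid oxidation and of the response to peroxisome proliferator-activated receptors (PPARs), picked by symbol and matched to their Ensembl identifiers among 60557 identifiers shared by all 15 libraries. All 33 were found, and 31 of them passed the filter on low counts that left 13157 genes for testing. The libraries are poly(A) RNA-seq of Caco-2, an established human colorectal adenocarcinoma line grown here as a monolayer, in which cells take on many features of absorptive enterocytes. Rinse aid for dishwashers was added for 24 h, at a dilution of 1:10000 in a first group and of 1:40000 in a second, and the control group was unexposed; each group has 5 libraries. The study asked what such products do to the gut epithelial barrier, and all groups use a single cell line. Nothing in the labels says that the replicates are separate cultures, so p-values measure the spread between these libraries, which may be technical.

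Fatty acids that enter a cell are first joined to coenzyme A by acyl-CoA synthetases. Long chains then cross into the mitochondrion as carnitine esters, and the beta-oxidation spiral shortens them by repeated dehydrogenation, hydration, oxidation and thiolysis, passing electrons to the respiratory chain through electron transfer flavoprotein. Peroxisomes run a parallel pathway for very long and branched chains. PPARs are nuclear receptors that bind fatty acids, pair with retinoid X receptors and raise transcription of many of these genes, and the enterocyte uses the same genes to deal with dietary fat.

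The libraries held 5489425 to 9555632 counts at 1:10000, 2551839 to 172092447 at 1:40000 and 4333226 to 14230853 in the controls. File headers name HISAT2 as the aligner of the rinse aid libraries and RNA STAR as that of the controls, and 3798 shared identifiers have another gene-model version in the control files. In both comparisons with control the exposure and the processing therefore cannot be told apart. The 1:10000 and 1:40000 libraries share the named aligner and the gene models and differ in dilution. Of 12 markers of enterocyte-like epithelium 11 were tested. All 12 summed to 12277 to 14363 counts per 1000000 (CPM) at 1:10000, 10026 to 11401 CPM at 1:40000 and 10038 to 11912 CPM in the controls. Means of EPCAM were 872 CPM at 1:10000, 835 CPM at 1:40000 and 884 CPM in the controls, but single markers stood apart both ways: KRT18 at 3977, 2320 and 2384 CPM, VIL1 of the brush border at 475, 588 and 760 CPM and CDX2 at 63.0, 192 and 172 CPM in the same order of groups. KRT20 was at 0 in every rinse aid library and at most 0.200 CPM in the controls, and sucrase-isomaltase, SI, averaged 3.92 CPM at 1:10000, 3.77 CPM at 1:40000 and 18.7 CPM in the controls. Of 8 fibroblast markers 5 were tested. The summed level of all 8 was 89.3 to 109 CPM at 1:10000, 139 to 163 CPM at 1:40000 and 178 to 194 CPM in the controls, with THY1 at 0 in every library. The 8 leukocyte markers, 2 of them tested (CD14 and LYZ), summed to 9.16 to 11.8 CPM at 1:10000, 16.04 to 23.6 CPM at 1:40000 and 13.9 to 21.6 CPM in the controls, with PTPRC and MS4A1 at 0 in every library, and the 5 adipocyte markers to at most 0.185 CPM. Messenger RNAs of the mitochondrial genome made up 2.57% to 3.32% of counts at 1:10000, 1.24% to 2.06% at 1:40000 and 1.14% to 1.45% in the controls, and its ribosomal RNAs 3.11% to 3.83%, 0.626% to 1.24% and 0.216% to 0.349%. The part of these shifts in the results that follow was not tested. In bulk RNA, fewer cells of a kind and less RNA per cell cannot be told apart.

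Most of the set was lower at 1:10000 than in either other group. Against control, 23 of the 31 tested members (74.2%) fell at 1:10000 and 2 rose, PLIN2 and PPARG, by the quasi-likelihood test of edgeR at an adjusted p under 0.05, with p-values adjusted over all tested genes by Benjamini and Hochberg's method. At that threshold 36.2% of all tested genes fell and 34.8% rose, 71.0% in all, so calls were frequent everywhere. The libraries of both groups did not overlap for 20 members (19 lower, 1 higher), against 57.8% of all tested genes. The members' median log2 fold change was -0.63, against -0.02 over all tested genes. At least 2-fold lower were 8 members and at least 2-fold higher 0, where 11.6% and 11.7% of all tested genes passed those bounds.

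At 1:40000 against control the picture was mixed. Here 13 members (41.9%) fell, against 26.0% of all tested genes, and 4 rose, PPARG, PPARD, ECI1 and ECI2, against 26.1%, a count that became 8 under upper-quartile scaling; 52.1% of all tested genes were called in either direction. The median was -0.13. The groups did not overlap for 14 members (12 lower, 2 higher), against 36.3% of all tested genes, and 0 members passed a 2-fold change, which 6.67% of all tested genes passed upward and 3.67% downward. Between the rinse aid groups, 26 members (83.9% of those tested) were lower at 1:10000 than at 1:40000 and 2 were higher, PLIN2 and ACSL5. Of all tested genes 29.0% were lower and 28.3% higher in that comparison, 57.3% in all, and the members' median was -0.51. The rinse aid groups did not overlap for 23 members (22 lower, 1 higher), against 40.3% of all tested genes. At least 2-fold lower at 1:10000 than at 1:40000 were 4 members, against 5.65% of all tested genes, and at least 2-fold higher 0, against 3.38%. For 8 members (PLIN3, SLC25A20, ACADSB, ACAA2, HADHB, ETFB, EHHADH and ACAA1) every 1:10000 library lay below every 1:40000 library, and every 1:40000 library below every control; 4.74% of all tested genes showed that order and 5.56% the opposite order, which 0 members showed. The comparisons share libraries, so the values are given side by side below. Log2 fold changes are of the first-named group over the second, with SE after the sign ±, and bare values in parentheses after a library left out or another scaling are adjusted p-values of the same test.

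**Figure D1:**
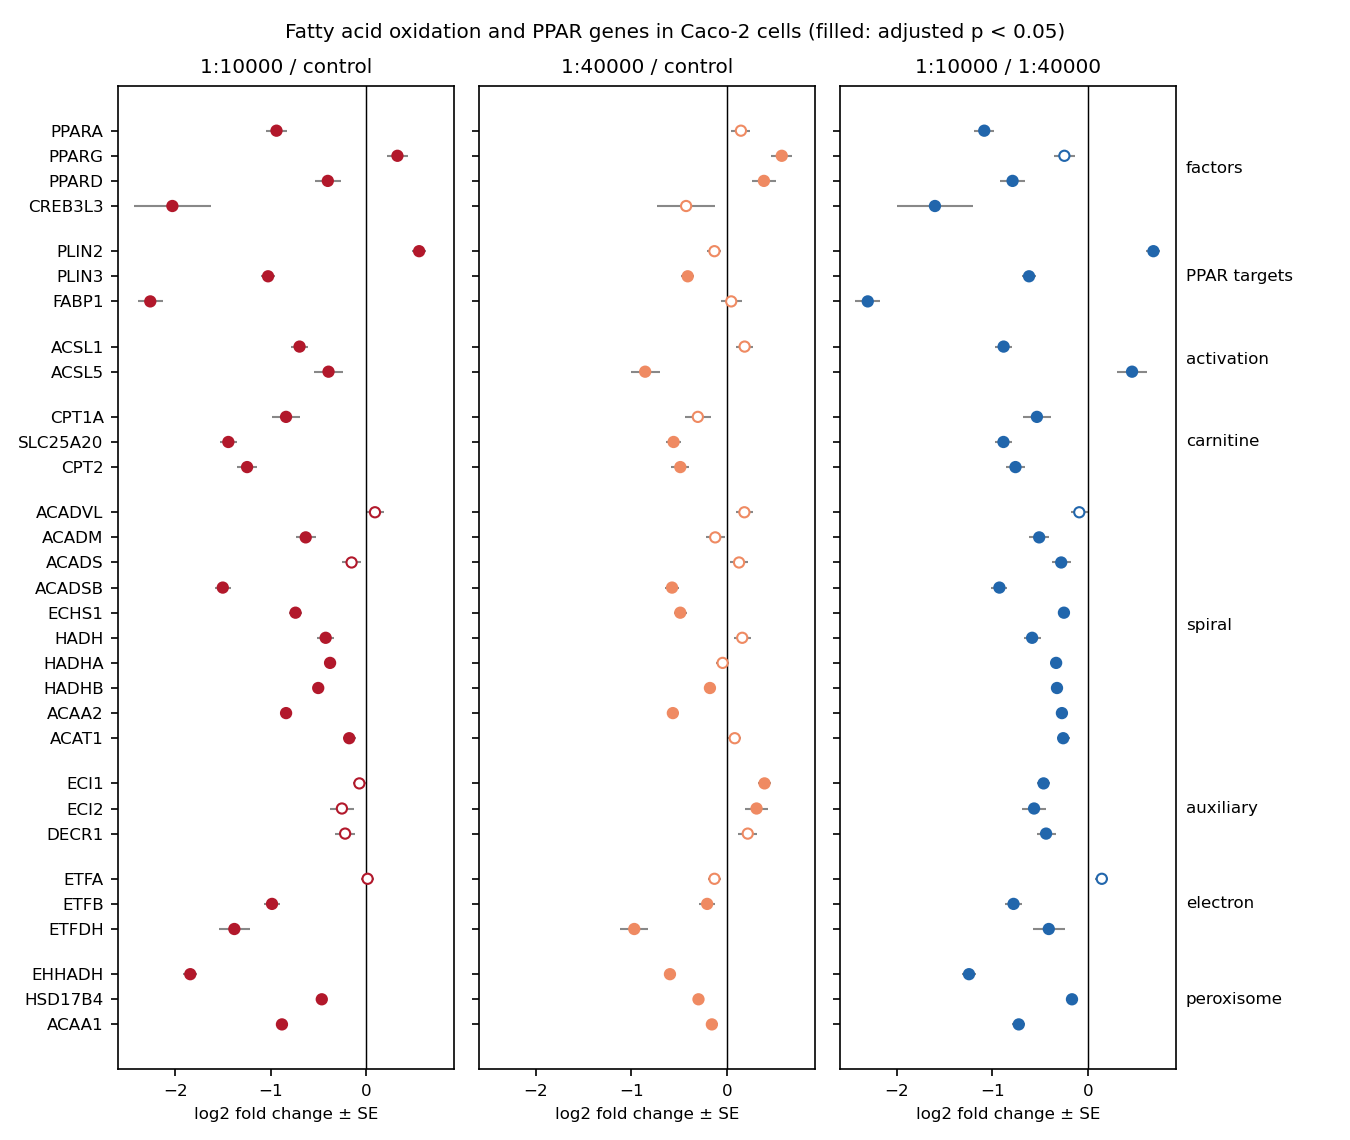
Log2 fold change with SE of the 31 tested members, grouped by role, for 1:10000 against control, 1:40000 against control and 1:10000 against 1:40000. Filled points have an adjusted p under 0.05; FABP1 lies at -2.26, 0.04 and -2.30 in the 3 panels and PLIN2 is the highest point in the first and the last.

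The receptors did not move together. PPARA, the receptor that drives fatty acid oxidation genes in fasting liver and in the small intestine (ENSG00000186951, chromosome 22 from 46150521 to 46243756 in GRCh38), had 20.7, 24, 21.9, 21.7 and 18 CPM in the 1:10000 libraries, 47.8, 49.3, 42.8, 44.7 and 41.5 CPM at 1:40000 and 39.5, 53, 37.3, 39.1 and 33.1 CPM in the controls. Every 1:10000 library lay below every library of the other groups, and the 1:40000 and control values overlapped. Its log2 fold change was -0.94 ± 0.11 (SE) at 1:10000 against control (adjusted p = 3.22e-08) and -1.08 ± 0.11 against 1:40000 (adjusted p = 5.68e-09). At 1:40000 against control it was 0.15 ± 0.10 (adjusted p = 0.226), which passed the threshold without control replicate 2 (adjusted p = 0.0127). PPARA has a changed gene model in the control files, so its level against control also carries that difference.

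PPARG, the receptor of adipocyte differentiation that colon epithelium also expresses, had 34.6, 27.1, 28.1, 30.2 and 26.9 CPM at 1:10000, 40.7, 35.1, 31.2, 36 and 30.8 CPM at 1:40000 and 25.4, 27.9, 20.6, 24.3 and 18.5 CPM in the controls. Every 1:40000 library was above every control, whereas the 1:10000 values overlapped both other groups. PPARG rose at 1:40000 (log2 fold change 0.57 ± 0.11, adjusted p = 9.83e-05) and at 1:10000 (log2 fold change 0.33 ± 0.11, adjusted p = 0.012); this second call was lost without control replicate 5 (adjusted p = 0.0541). The difference of 1:10000 from 1:40000, -0.25 ± 0.11, had an adjusted p of 0.0541, and it passed without 1:10000 replicate 1 (0.0246) or 1:40000 replicate 3 or 5 (0.0329 and 0.0331), under upper-quartile scaling (0.0217), with no filter (0.0243) and with the compared groups alone (0.0399).

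PPARD, the receptor found across most tissues, had 10.5, 16.3, 15, 13.3 and 14.1 CPM at 1:10000, 27.5, 23.3, 19.9, 22.1 and 25 CPM at 1:40000 and 20.6, 22, 13.5, 17.5 and 16.2 CPM in the controls. It was the member called in opposite directions against control at the 2 dilutions, as were 2.67% of all tested genes. At 1:10000 it fell (log2 fold change -0.40 ± 0.14, adjusted p = 0.0112), a call lost without control replicate 2 (0.0510) or 1:10000 replicate 1 (0.0615), and at 1:40000 it rose (log2 fold change 0.39 ± 0.13, adjusted p = 0.0119), lost without 1:40000 replicate 1 (0.0532) or replicates 1 and 2 together (0.0758). Both of those pairs of groups overlapped. Between the rinse aid groups there was no overlap, and PPARD was lower at 1:10000 (log2 fold change -0.79 ± 0.13, adjusted p = 1.52e-05).

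CREB3L3, a membrane-bound transcription factor of liver and small intestine that acts with PPARA on shared targets, was the scarcest tested member. It had 0.351, 1.22, 0.378, 0.610 and 0.931 CPM at 1:10000, from 3 to 6 counts a library, 2.74, 3.06, 1.22, 1.41 and 1.74 CPM at 1:40000 and 4.39, 3.43, 1.55, 1.77 and 2.45 CPM in the controls. No 1:10000 library exceeded any library of the other groups, although its highest value and the lowest at 1:40000 were equal to 3 digits. The log2 fold change was -2.03 ± 0.41 at 1:10000 against control (adjusted p = 9.17e-05), -0.43 ± 0.30 at 1:40000 against control (adjusted p = 0.243) and -1.60 ± 0.40 at 1:10000 against 1:40000 (adjusted p = 0.00135). Without 1:40000 replicates 1 and 2, the deepest and the shallowest library, the 1:40000 difference from control was -0.90 (adjusted p = 0.0294).

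The members grouped by role as non-enzyme or regulatory PPAR targets split. FABP1, the liver-type fatty acid-binding protein that carries fatty acids through the enterocyte cytosol (ENSG00000163586, chromosome 2 from 88122982 to 88128116), had 20.8, 21.2, 12.9, 22.7 and 18.5 CPM at 1:10000, 88, 117, 81.6, 91.2 and 101 CPM at 1:40000 and 104, 104, 83.2, 83.3 and 83 CPM in the controls. The 1:10000 mean was 21.0% of the control mean, with no overlap with either other group, and the 1:40000 and control values overlapped. The log2 fold change was -2.26 ± 0.13 at 1:10000 against control (adjusted p = 3.34e-12) and -2.30 ± 0.13 against 1:40000 (adjusted p = 1.13e-11), the lowest of any tested member in both. At 1:40000 against control it was 0.04 ± 0.11 (adjusted p = 0.766), with a sign that turned without 1:40000 replicate 2 (log2 fold change -0.01).

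PLIN2, the coat protein of cytosolic lipid droplets (ENSG00000147872, chromosome 9 from 19108375 to 19149290), moved the other way. It had 71.1, 63.7, 69.1, 70.9 and 64.6 CPM at 1:10000, 42, 40.1, 44.4, 38.9 and 44.7 CPM at 1:40000 and 52.9, 45.7, 47.5, 44.9 and 41.5 CPM in the controls. Every 1:10000 library was above every library of the other groups, and those overlapped each other. PLIN2 rose at 1:10000 against control (log2 fold change 0.56 ± 0.07, adjusted p = 2.76e-07) and was higher than at 1:40000 (log2 fold change 0.69 ± 0.07, adjusted p = 1.75e-08); at 1:40000 against control it was -0.13 ± 0.07 (adjusted p = 0.138). PLIN3, a perilipin that shuttles between cytosol and nascent droplets, instead fell. Its values were 75.2, 69, 57.5, 66.1 and 66.6 CPM at 1:10000, 106, 112, 95.5, 101 and 100.4 CPM at 1:40000 and 126, 153, 133, 136 and 131 CPM in the controls, with no overlap between any pair of groups. The log2 fold change of PLIN3 was -1.03 ± 0.07 at 1:10000 (adjusted p = 3.98e-12) and -0.41 ± 0.07 at 1:40000 (adjusted p = 2.66e-05), both against control, and -0.62 ± 0.07 between them (adjusted p = 1.02e-07). An unnamed antisense gene overlaps 502 bases of PLIN3 exons, and the strand setting of the counting is not given in the sources used here.

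PDK4, the kinase that turns off pyruvate dehydrogenase in fasting, and ANGPTL4, a secreted inhibitor of lipoprotein lipase, are textbook PPAR targets that were near the limit of detection. PDK4 had 3 counts over the 5 libraries at 1:10000, 18 at 1:40000 and 5 in the controls. ANGPTL4 had 5 counts at 1:10000, 151 at 1:40000, of which 127 came from the deepest library, and 12 in the controls. Neither passed the filter. Fitted without a filter, ANGPTL4 was lower at 1:10000 than at 1:40000 (log2 fold change -1.98 ± 0.67, adjusted p = 0.0223), and the other 5 differences of these genes had adjusted p of 0.176 or more.

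PPARs bind DNA with a retinoid X receptor at a direct repeat known as DR1, so the promoters of the set were read on both strands for AGGTCA, any base and AGGTCA again, allowing 2 mismatches outside the free base. RefSeq (GRCh38.p14) gave a window of 250 bases before to 50 after the start for 29 of the 33 members. EHHADH, ACAA1, ETFDH and DECR1 had no window and were not read. A match was found for 4 of these 29 genes (13.8%), CREB3L3, FABP1, ACSL1 and ACAA2, against 3.63% of 27303 genes with a window, and 0 members held an exact match. Some genes have several windows. Counted by window, 8.89% of the members' 45 and 2.97% of all 35114 held a match. The shorter AGGTCA alone stood in windows of 13.8% of the members and 16.5% of all genes, and it overlaps the longer motif. The upstream 250 bases are shown for FABP1 (chr2:88128063-88128312, minus strand) and CREB3L3 (chr19:4153381-4153630, plus strand), the members with the lowest log2 fold changes at 1:10000, read 5′ to 3′ in the gene's direction; capitals mark the matched 13 bases.
FABP1: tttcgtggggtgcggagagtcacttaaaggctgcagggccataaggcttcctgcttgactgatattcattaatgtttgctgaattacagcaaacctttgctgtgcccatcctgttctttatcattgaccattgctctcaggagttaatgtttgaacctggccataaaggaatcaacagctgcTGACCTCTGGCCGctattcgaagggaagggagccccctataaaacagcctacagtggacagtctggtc
CREB3L3: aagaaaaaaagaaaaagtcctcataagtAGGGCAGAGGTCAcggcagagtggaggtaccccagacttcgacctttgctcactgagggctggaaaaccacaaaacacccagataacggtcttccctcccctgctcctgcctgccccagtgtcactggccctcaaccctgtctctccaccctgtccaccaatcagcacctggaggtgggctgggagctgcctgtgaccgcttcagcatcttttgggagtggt
In FABP1 the match lies on the opposite strand, read there as CGGCCAGAGGTCA with 2 mismatches, and begins 68 bases before the start; in CREB3L3 it is AGGGCAGAGGTCA with 1 mismatch, 222 bases before the start. The matched letters were AGGGCACAAGTCA for ACSL1, in 1 of its 5 windows, and AGGTGAAAGGGCA for ACAA2, each with 2 mismatches. These are matches of letters and not measured binding. At 1:10000 against control all 4 genes fell, as did 23 of the 31 tested members (74.2%) and 36.2% of all tested genes. A link between match and fall was not tested.

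**Figure D2:**
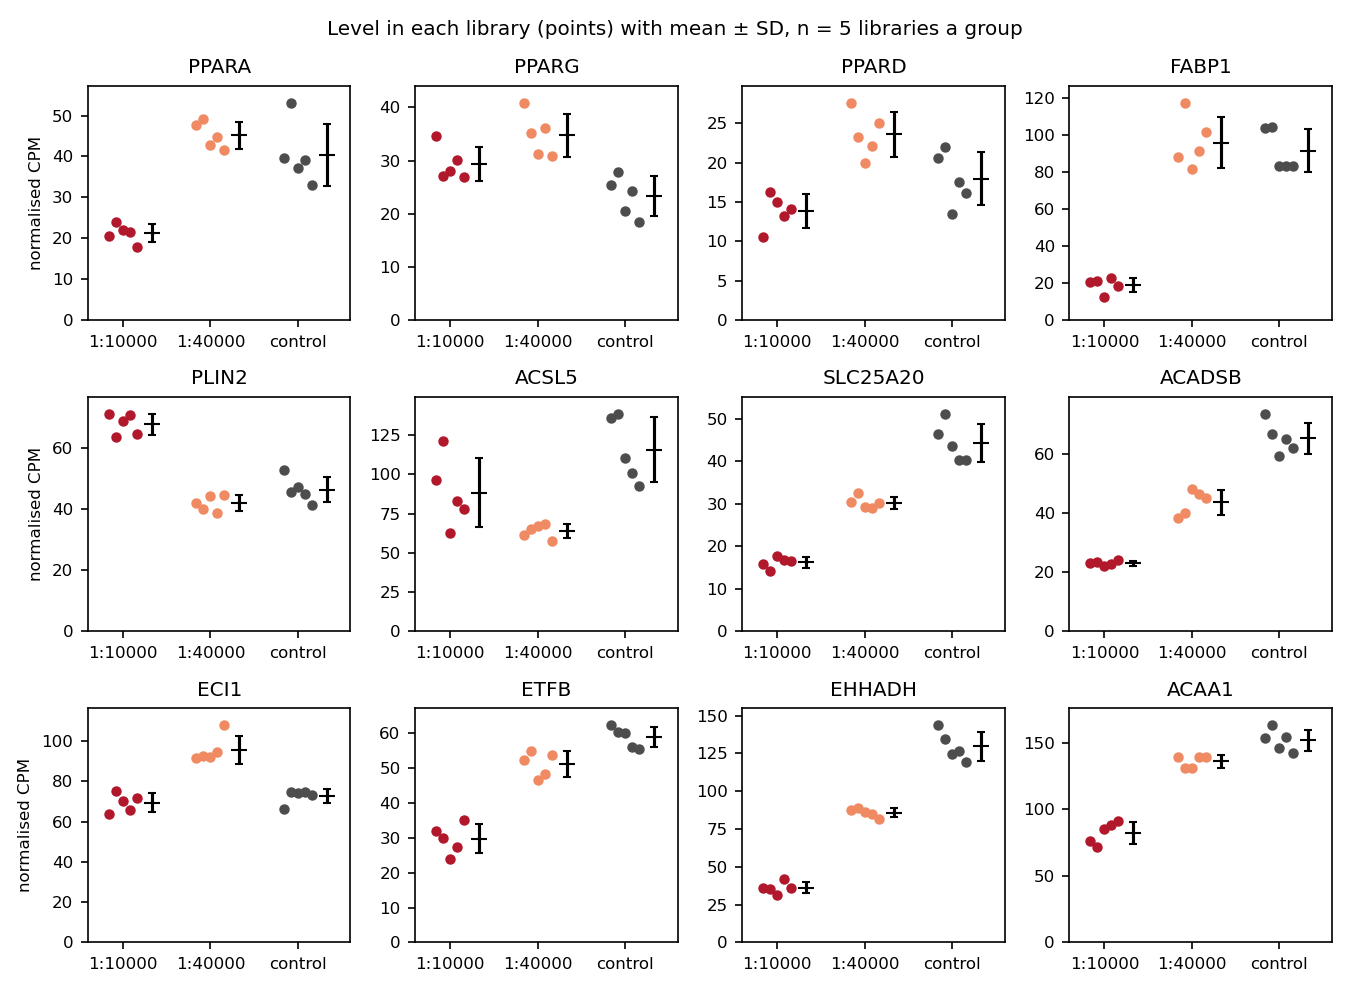
Normalised CPM of 12 members in each library (points) with the group mean and SD (bars, 5 libraries a group), in panels whose axes start at 0. FABP1 sits at 12.9 to 22.7 CPM at 1:10000, against at least 81.6 CPM in all other libraries, PLIN2 is highest at 1:10000, and SLC25A20, ACADSB, ETFB, EHHADH and ACAA1 step up through the 3 groups without overlap.

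The acyl-CoA synthetases, which activate long-chain fatty acids, differed from each other. ACSL1, the synthetase of liver, fat and muscle, had 39.3, 45.6, 55.5, 47 and 50.9 CPM at 1:10000, 81.5, 89.8, 88.3, 92.1 and 88.7 CPM at 1:40000 and 59.9, 76.6, 81.4, 85.4 and 81.1 CPM in the controls. All 1:10000 values lay below all others, while 1:40000 and control overlapped. Its log2 fold change was -0.70 ± 0.09 at 1:10000 against control (adjusted p = 2.24e-07), -0.88 ± 0.09 against 1:40000 (adjusted p = 1.01e-08) and 0.18 ± 0.09 at 1:40000 against control (adjusted p = 0.0764), which passed without control replicate 4 (0.0469) or 1:40000 replicate 1 (0.0487) and, as a rise of 0.24, under upper-quartile scaling (0.0259), as well as with no filter (0.0141) and with the compared groups alone (0.0486).

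ACSL5, the mitochondrial and endoplasmic reticulum form abundant in intestine, had 96.7, 121, 62.8, 83 and 78.2 CPM at 1:10000, 61.3, 65.3, 67.3, 68.3 and 57.3 CPM at 1:40000 and 136, 138, 111, 101 and 92.9 CPM in the controls. It was lowest at 1:40000, below every control, and the 1:10000 values overlapped both other groups. ACSL5 fell at 1:40000 (log2 fold change -0.86 ± 0.15, adjusted p = 0.000205), and 1:10000 was above 1:40000 (log2 fold change 0.46 ± 0.15, adjusted p = 0.0169), a call lost with no filter (0.110) or without 1:40000 replicates 1 and 2 together (0.0736). At 1:10000 against control the value was -0.39 ± 0.15 (adjusted p = 0.029), and the call was lost without control replicate 1 (0.0668) or 2 (0.0800) or 1:10000 replicate 3 (0.0583), 4 (0.0587) or 5 (0.0648), with no filter (0.0898), without 1:40000 replicates 1 and 2 together (0.0700) and with the compared groups alone (0.0896).

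All 3 members of the carnitine shuttle fell at 1:10000. The carrier SLC25A20, which swaps acylcarnitine for carnitine across the inner membrane (ENSG00000178537, chromosome 3 from 48856931 to 48898993), had 15.8, 14.2, 17.7, 16.8 and 16.6 CPM at 1:10000, 30.4, 32.5, 29.3, 28.9 and 30.2 CPM at 1:40000 and 46.3, 51, 43.5, 40.4 and 40.3 CPM in the controls. The 3 groups did not overlap, with 1:10000 lowest. Its log2 fold change was -1.44 ± 0.09 at 1:10000 (adjusted p = 3.37e-13) and -0.56 ± 0.08 at 1:40000 against control (adjusted p = 3.54e-06), and -0.88 ± 0.09 between the dilutions (adjusted p = 9.29e-09).

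CPT2, which returns the acyl group to coenzyme A inside the mitochondrion, had 15, 16.5, 15.5, 15.6 and 16.1 CPM at 1:10000, 25.2, 24.4, 24.2, 27.7 and 31.2 CPM at 1:40000 and 35.3, 45.3, 30.8, 36 and 37.2 CPM in the controls. The 1:10000 libraries were below all others, and only the highest 1:40000 library reached into the control range. CPT2 fell at 1:10000 (log2 fold change -1.25 ± 0.10, adjusted p = 9.59e-11) and at 1:40000 (log2 fold change -0.49 ± 0.10, adjusted p = 0.000146), and 1:10000 was below 1:40000 (log2 fold change -0.76 ± 0.10, adjusted p = 1.11e-06). CPT1A, the malonyl-CoA-sensitive enzyme that sets the entry rate, averaged 17.6 ± 2.77 CPM at 1:10000, 26.5 ± 7.03 CPM at 1:40000 and 31.6 ± 3.76 CPM in the controls (SD, n = 5 each). CPT1A fell at 1:10000, at -0.84 ± 0.15 against control (adjusted p = 2.71e-05). The 1:40000 difference of -0.31 ± 0.14 missed the threshold (adjusted p = 0.0686) and passed it without 1:40000 replicate 1 (0.0293), 2 (0.0130) or both (0.000924).

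Within the spiral, 8 of 10 members fell at 1:10000 against control and the other 2, ACADVL and ACADS, were not called, where 36.2% of all tested genes fell and 71.0% were called. ACADSB, the dehydrogenase of short branched chains derived from isoleucine (ENSG00000196177, chromosome 10 from 123008979 to 123058311), had the lowest values relative to control, with 23.1, 23.4, 21.9, 22.7 and 24.2 CPM at 1:10000, 38.3, 40.1, 48.1, 46.5 and 45.2 CPM at 1:40000 and 73.3, 66.7, 59.2, 64.9 and 62 CPM in the controls. Its groups did not overlap, and the 1:10000 mean was 35.4% of the control mean. The log2 fold change of ACADSB was -1.50 ± 0.08 at 1:10000 (adjusted p = 4.2e-14), -0.57 ± 0.08 at 1:40000 (adjusted p = 9.55e-07) and -0.93 ± 0.08 at 1:10000 against 1:40000 (adjusted p = 1.41e-09).

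The other acyl-CoA dehydrogenases are ordered by chain length. ACADVL, the very-long-chain enzyme, averaged 58.8 ± 6.56 CPM at 1:10000, 62.7 ± 8.02 CPM at 1:40000 and 55.1 ± 2.67 CPM in the controls (SD, n = 5 each), and was called in none of the comparisons (adjusted p = 0.357, 0.0825 and 0.397); the difference of 1:40000 from control passed without 1:40000 replicate 3 (0.0257) or 4 (0.0452) and, at 0.23, under upper-quartile scaling (0.0265), and with no filter (0.0249). ACADM, the medium-chain enzyme, averaged 36.7 ± 5.28 CPM at 1:10000, 52.8 ± 3.09 CPM at 1:40000 and 57.3 ± 9.52 CPM in the controls, and fell at 1:10000 (log2 fold change -0.63 ± 0.10, adjusted p = 6.64e-06). ACADM shares 157 exonic bases on the same strand with RABGGTB, whose mean was 129 CPM at 1:10000, 39.6 CPM at 1:40000 and 28.3 CPM in the controls. ACADS, the short-chain enzyme, averaged 23.1 ± 0.852 CPM at 1:10000, 28.3 ± 4.24 CPM at 1:40000 and 25.6 ± 2.33 CPM in the controls; only its difference of 1:10000 from 1:40000 was called (log2 fold change -0.28 ± 0.10, adjusted p = 0.0185), and not without 1:40000 replicate 1 (0.102), 2 (0.0517) or both (0.325).

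The hydration and oxidation steps include ECHS1 and HADHA, the members with the highest levels per kb of exon in every group. ECHS1, the short-chain enoyl-CoA hydratase, averaged 255 ± 24.8 CPM at 1:10000, 304 ± 20.4 CPM at 1:40000 and 426 ± 23.8 CPM in the controls (SD, n = 5 each). It fell at both dilutions against control, at 1:10000 (log2 fold change -0.74 ± 0.07, adjusted p = 3.77e-10) and at 1:40000 (log2 fold change -0.49 ± 0.07, adjusted p = 1.09e-06). HADHA and HADHB encode the subunits of the trifunctional protein that handles long chains, and lie head to head on chromosome 2 with promoter windows that share 194 bases. HADHA averaged 294 ± 22.7 CPM at 1:10000, 369.9 ± 28.2 CPM at 1:40000 and 382 ± 25.5 CPM in the controls, and HADHB 133 ± 7.03, 166 ± 3.19 and 188 ± 12.1 CPM in the same order. At 1:10000 against control both genes fell, HADHA (log2 fold change -0.38 ± 0.06, adjusted p = 1.3e-05) and HADHB (log2 fold change -0.50 ± 0.06, adjusted p = 2.35e-08).

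At 1:40000 HADHB fell (log2 fold change -0.18 ± 0.06, adjusted p = 0.00994), a call lost without control replicate 1 (0.0536) under upper-quartile scaling (0.0558) and with no filter (0.304), while HADHA stood at -0.05 ± 0.06 (adjusted p = 0.579) with a sign that turned under that scaling (log2 fold change 0.01) and with no filter (log2 fold change 0.03). The HADHA pseudogene HADHAP1 had 3.09 CPM at 1:10000, 3.96 CPM at 1:40000 and 0.0922 CPM in the controls; how the counting divided reads between these copies is not given in the sources used here.

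HADH, the short-chain hydroxyacyl-CoA dehydrogenase, had 62.7, 56.6, 46.4, 45 and 45.3 CPM at 1:10000, 79.8, 88.6, 70.1, 77.6 and 71.2 CPM at 1:40000 and 72.5, 73.8, 61.5, 69.3 and 65.6 CPM in the controls. The rinse aid groups did not overlap, and 1:10000 reached into the control range with its highest library. HADH fell at 1:10000 against control (log2 fold change -0.42 ± 0.09, adjusted p = 0.000215) and was below 1:40000 (log2 fold change -0.58 ± 0.09, adjusted p = 5.83e-06). At 1:40000 against control the change was 0.16 ± 0.09 (adjusted p = 0.131), called as a rise of 0.21 on the log2 scale under upper-quartile scaling (0.0434), and with no filter (0.0417).

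The thiolases close each turn of the spiral. ACAA2, the mitochondrial 3-ketoacyl-CoA thiolase, had 136, 137, 127, 146 and 132 CPM at 1:10000, 154, 161, 171, 175 and 157 CPM at 1:40000 and 228, 273, 243, 236 and 232 CPM in the controls, without overlap between groups. The control values stood well above both rinse aid groups, which lay close together. ACAA2 fell at 1:10000 (log2 fold change -0.84 ± 0.06, adjusted p = 8.05e-12) and at 1:40000 (log2 fold change -0.57 ± 0.06, adjusted p = 2.39e-08), with -0.27 ± 0.06 between the dilutions (adjusted p = 0.000552). ACAT1, the acetoacetyl-CoA thiolase shared with ketone body and isoleucine metabolism, averaged 195 ± 15.2 CPM at 1:10000, 234 ± 14.1 CPM at 1:40000 and 220.3 ± 19.6 CPM in the controls (SD, n = 5 each). Its fall of -0.18 ± 0.07 at 1:10000 (adjusted p = 0.0217) was lost without control replicate 2 (0.0811) or 1:10000 replicate 3 (0.0756) or 5 (0.0590) and with no filter (0.0622).

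The auxiliary enzymes, which shift or reduce double bonds so that unsaturated chains can enter the spiral, formed the class with no call at 1:10000 against control. ECI1, an enoyl-CoA isomerase, had 63.9, 75.5, 70.5, 65.9 and 71.9 CPM at 1:10000, 91.5, 92.4, 92, 94.6 and 108 CPM at 1:40000 and 66.5, 74.6, 74.1, 74.9 and 73.4 CPM in the controls. Every 1:40000 library was above every other library, and 1:10000 overlapped the controls. ECI1 rose at 1:40000 (log2 fold change 0.39 ± 0.07, adjusted p = 2.49e-05), and 1:10000 was below 1:40000 (log2 fold change -0.46 ± 0.07, adjusted p = 2.27e-06); against control 1:10000 was not called (log2 fold change -0.07 ± 0.07, adjusted p = 0.364).

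ECI2, the isomerase found in both peroxisomes and mitochondria, had 17.4, 23.4, 17, 14.3 and 17.5 CPM at 1:10000, 30.1, 26, 24.3, 24.4 and 25.8 CPM at 1:40000 and 18.4, 26.5, 22.9, 20.7 and 17.1 CPM in the controls. The rinse aid groups did not overlap each other and each overlapped the controls. ECI2 rose at 1:40000 (log2 fold change 0.31 ± 0.12, adjusted p = 0.0323), which was lost without control replicate 1 (0.0677), 4 (0.0685) or 5 (0.0969), 1:40000 replicate 1 (0.116) or 1:40000 replicates 1 and 2 together (0.154). At 1:10000 it was not called against control (log2 fold change -0.25 ± 0.13, adjusted p = 0.0795), past the threshold without control replicate 5 (0.0302) or 1:10000 replicate 2 (0.0224). Against 1:40000 it was lower at 1:10000 (log2 fold change -0.56 ± 0.12, adjusted p = 0.000383).

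DECR1, the 2,4-dienoyl-CoA reductase, had 32.2, 33.8, 24.1, 31.9 and 30.4 CPM at 1:10000, 44.1, 47.7, 37.5, 39.9 and 38.4 CPM at 1:40000 and 38.9, 40.8, 29.5, 34.1 and 32.7 CPM in the controls. As with the isomerases, the 1:40000 libraries lay above all 1:10000 libraries, and the controls overlapped both. The difference of 1:10000 from 1:40000 was -0.44 ± 0.10 (adjusted p = 0.000596). Against control the values were -0.22 ± 0.10 at 1:10000 (adjusted p = 0.0582), called without control replicate 3 (0.0250) or 5 (0.0466), and 0.22 ± 0.10 at 1:40000 (adjusted p = 0.0649), called without control replicate 1 (0.0402) or 2 (0.0245) or 1:40000 replicate 3 (0.0443) and, at 0.27, under upper-quartile scaling (0.0234), as well as with no filter (0.0202) and with the compared groups alone (0.0487).

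The subunits of electron transfer flavoprotein, which work as a pair, were measured at unlike changes. ETFB had 31.9, 30.1, 24.1, 27.5 and 35.1 CPM at 1:10000, 52.4, 55, 46.5, 48.4 and 53.9 CPM at 1:40000 and 62.3, 60.5, 60.1, 56.1 and 55.6 CPM in the controls. Its groups did not overlap and 1:10000 was lowest. ETFB fell at 1:10000 against control (log2 fold change -0.99 ± 0.09, adjusted p = 3.01e-10) and was below 1:40000 (log2 fold change -0.78 ± 0.09, adjusted p = 4.54e-08). At 1:40000 against control the fall of -0.21 ± 0.08 (adjusted p = 0.0372) was lost without control replicate 1 (0.0980), 2 (0.0681), 3 (0.0638) or 5 (0.0505) or 1:40000 replicate 3 (0.106) or 4 (0.0818), under upper-quartile scaling (0.115) and with no filter (0.322).

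ETFA averaged 219 ± 27.3 CPM at 1:10000, 198 ± 11.7 CPM at 1:40000 and 217 ± 7.92 CPM in the controls (SD, n = 5 each), and was called in none of the comparisons (adjusted p = 0.851, 0.112 and 0.0709); its gene model also changed between file sets. The difference of 1:10000 from 1:40000, 0.15 ± 0.07, passed without 1:10000 replicate 3 (0.0307) or 4 (0.0451) or 1:40000 replicate 2 (0.0318) or replicates 1 and 2 together (0.0382). ETFDH, the oxidoreductase that hands the electrons on to ubiquinone, had 4.21, 5.70, 4.16, 4.42 and 3.88 CPM at 1:10000, 5.21, 7.64, 6.23, 5.84 and 5.74 CPM at 1:40000 and 15.4, 12.5, 8.87, 10.1 and 11 CPM in the controls. Both rinse aid groups lay below all controls and overlapped each other. ETFDH fell at 1:10000 (log2 fold change -1.38 ± 0.16, adjusted p = 4.97e-08) and at 1:40000 (log2 fold change -0.97 ± 0.15, adjusted p = 6.49e-06). The difference between the dilutions, -0.41 ± 0.17 (adjusted p = 0.0402), was lost in 8 of the 10 fits that left out a rinse aid library (all but 1:10000 replicate 2 and 1:40000 replicate 1), with adjusted p of 0.0516 to 0.0909, and by DESeq2 (0.0642). ETFDH exons overlap those of PPID and C4orf46 on the other strand.

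All 3 peroxisomal enzymes fell at both dilutions against control, where 36.2% of all tested genes fell at 1:10000 and 26.0% at 1:40000. Of 23 tested peroxisomal genes outside the set, 13 (56.5%) fell and 5 rose at 1:10000. At 1:40000, 7 of them (30.4%) fell and 3 rose. EHHADH, the L-bifunctional enzyme and a well-known PPARA target in liver (ENSG00000113790, chromosome 3 from 185190624 to 185281990), had 36.3, 35.2, 31.7, 41.6 and 36.3 CPM at 1:10000, 87.9, 89, 86.1, 84.8 and 81.4 CPM at 1:40000 and 144, 135, 125, 126 and 119 CPM in the controls. The groups were far apart, with the 1:10000 mean at 27.9% and the 1:40000 mean at 66.1% of the control mean. Its log2 fold change was -1.84 ± 0.07 at 1:10000 (adjusted p = 6.21e-17), -0.60 ± 0.07 at 1:40000 (adjusted p = 6.49e-08) and -1.24 ± 0.07 at 1:10000 against 1:40000 (adjusted p = 9.64e-13). An antisense gene, EHHADH-AS1, overlaps 269 of its exonic bases and had at most 0.223 CPM in any group mean.

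ACAA1, the peroxisomal thiolase, had 75.8, 71.8, 84.9, 88.5 and 90.8 CPM at 1:10000, 139, 131, 131, 139 and 139 CPM at 1:40000 and 154, 163, 146, 154 and 142 CPM in the controls. No pair of groups overlapped, though the 1:40000 and control ranges were close. ACAA1 fell at 1:10000 (log2 fold change -0.88 ± 0.07, adjusted p = 1.24e-11) and was below 1:40000 (log2 fold change -0.72 ± 0.07, adjusted p = 1.56e-09). The fall at 1:40000, -0.16 ± 0.06 (adjusted p = 0.0405), was lost without control replicate 1 (0.0845), 2 (0.104) or 4 (0.0766) or 1:40000 replicate 2 (0.0828), 3 (0.0894) or 4 (0.0501), without 1:40000 replicates 1 and 2 together (0.0810), under upper-quartile scaling (0.173) and with no filter (0.475). HSD17B4, the D-bifunctional enzyme used for branched chains, averaged 148 ± 6.96 CPM at 1:10000, 167 ± 7.88 CPM at 1:40000 and 204 ± 13.9 CPM in the controls (SD, n = 5 each). It fell at 1:10000 (log2 fold change -0.46 ± 0.06, adjusted p = 1.31e-07) and at 1:40000 (log2 fold change -0.30 ± 0.06, adjusted p = 0.000132), and the difference between dilutions (log2 fold change -0.17 ± 0.06, adjusted p = 0.0182) was lost without 1:10000 replicate 4 (0.0515) or 5 (0.0521) or 1:40000 replicate 2 (0.0678) or replicates 1 and 2 together (0.107).

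Set side by side by compartment, at 1:10000 against control 13 of 19 mitochondrial enzymes and carriers fell and 0 rose, with a median log2 fold change of -0.50. All 3 peroxisomal enzymes fell, with a median of -0.88. Of the 3 tested members grouped as PPAR targets without enzyme activity, FABP1 and PLIN3 fell and PLIN2 rose. Their median of -1.03 is the value of PLIN3 alone. Of all tested genes 36.2% fell and 34.8% rose in that comparison. At 1:40000 against control 8 mitochondrial members (42.1%) fell and 2 rose (median -0.13), where 26.0% of all tested genes fell and 26.1% rose. All 3 peroxisomal members fell there, with a median of -0.30. Between dilutions 17 of the 19 mitochondrial and all 3 peroxisomal members were lower at 1:10000, with medians of -0.44 and -0.72, against 29.0% of all tested genes lower and 28.3% higher. Of the members given above by their means, CPT1A (-0.53 ± 0.15), ACADM (-0.51 ± 0.10), HADHA (-0.33 ± 0.06), HADHB (-0.32 ± 0.06), ACAT1 (-0.26 ± 0.07) and ECHS1 (-0.25 ± 0.07) were lower at 1:10000 than at 1:40000 in log2 fold change, with adjusted p of 0.000155 for ACADM and 0.00355 for CPT1A. The classes are small and chosen by role, and the difference between them was not tested. The 14 tested members with no annotated overlap, named pseudogene or changed model included 9 (64.3%) that fell and 2 that rose at 1:10000 against control, with a median of -0.46. All 3 peroxisomal members have an annotated overlap and are not among these 14. Of these 14, 3 (21.4%) fell at 1:40000 against control, where 26.0% of all tested genes fell, and 3 rose, with a median of 0.09, where the median of all members was -0.13. Between the dilutions 12 of them (85.7%) were lower at 1:10000 and 1 higher.

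Summed over genes, the carnitine shuttle stood at 49.6 ± 2.99 CPM at 1:10000, 83.3 ± 7.85 CPM at 1:40000 and 113 ± 11.8 CPM in the controls (SD, n = 5 each). The 10 spiral genes summed to 1206 ± 66.0 CPM at 1:10000, 1502 ± 30.3 CPM at 1:40000 and 1730.5 ± 87.5 CPM in the controls, and the peroxisomal genes to 267 ± 6.25, 389 ± 9.19 and 486 ± 29.4 CPM in that order. In these 3 classes no library of a group overlapped another group. The spiral sum does not stand for each of its genes. At 1:40000 against control 4 of the 10 were called lower and 0 higher, with a median of -0.08, where 26.0% of all tested genes fell. ECHS1 averaged 304 CPM at 1:40000 and 426 CPM in the controls, and ACAA2 164 and 242 CPM. ACADVL, ACADS, HADH and ACAT1 had positive log2 fold changes there that were not called, 0.18, 0.13, 0.16 and 0.08. The electron transfer sum, most of which is ETFA, was 253 ± 29.7 CPM at 1:10000, 256 ± 14.1 CPM at 1:40000 and 287 ± 12.6 CPM in the controls, and its groups overlapped. Mitochondrially encoded messenger RNA, given above, stood the other way, with its highest share at 1:10000.

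**Figure D3:**
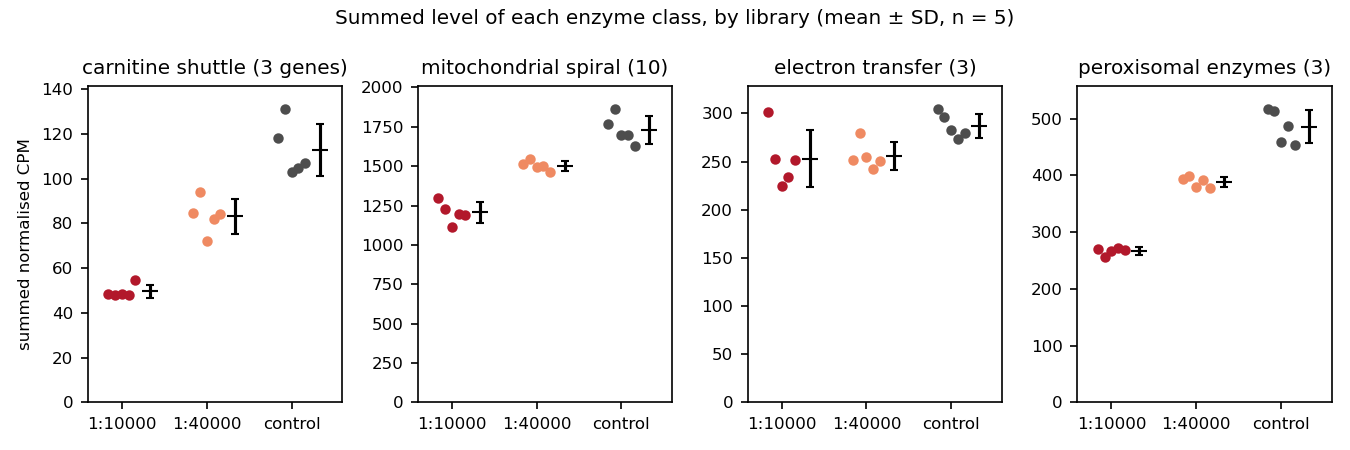
Summed normalised CPM of the genes of 4 enzyme classes in each library (points) with mean and SD (bars, 5 libraries a group). Carnitine shuttle, spiral and peroxisomal sums are lowest at 1:10000 and highest in the controls without overlap, while the electron transfer sums overlap. Genes with the highest counts weigh most in each sum.

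Per kb of exon, the set spanned a wide range of levels. ECHS1 was highest in every group, with group means of 158 CPM per kb at 1:10000, 188 at 1:40000 and 263 in the controls, and HADHA came next with 67.1, 84.4 and 87.2 CPM per kb. FABP1 stood at 7.78 CPM per kb at 1:10000, against 38.8 at 1:40000 and 37 in the controls. Of the receptors, PPARG had the highest level, 6.48 CPM per kb at 1:10000, 7.67 at 1:40000 and 5.14 in the controls, and PPARA the lowest, with 1.61, 3.42 and 3.06 CPM per kb. CREB3L3, ANGPTL4 and PDK4 closed the order, with CREB3L3 at 0.261 CPM per kb at 1:10000, 0.760 at 1:40000 and 1.02 in the controls.

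**Figure D4:**
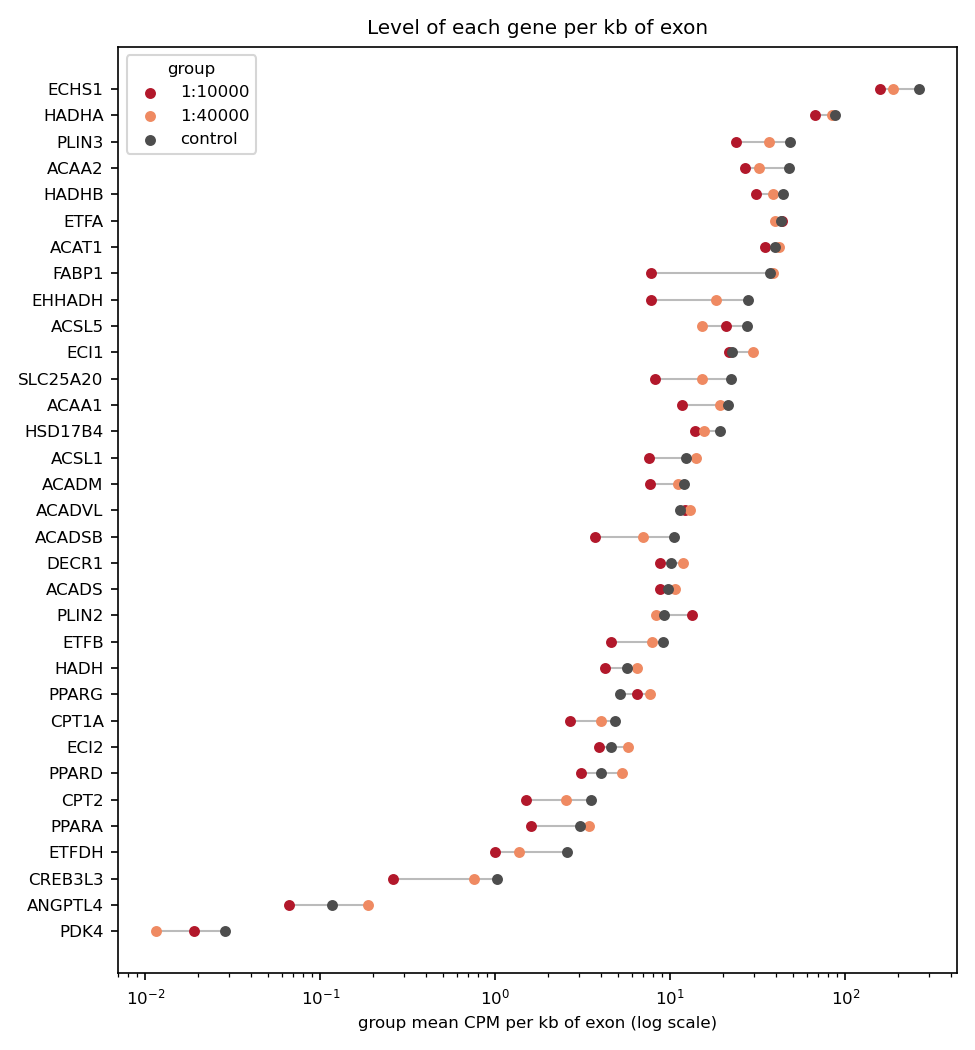
Group mean level of all 33 members in CPM per kb of exon (log scale), sorted by the control level. ECHS1 is highest at 158 CPM per kb at 1:10000, 188 at 1:40000 and 263 in the controls; grey lines join the 3 groups of a gene.

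A wider list of 84 genes around these pathways (27 of mitochondrial oxidation and ketone metabolism, 24 peroxisomal, 21 further PPAR targets and 16 receptor partners and coregulators, some in more than 1 list) gave 69 tested genes. At 1:10000 against control 39 of them (56.5%) fell and 14 rose, with a median log2 fold change of -0.37, where 36.2% of all tested genes fell. Against control at 1:40000, 20 (29.0%) fell and 14 rose, with a median of -0.07, near the 26.0% of all tested genes that fell. Lower at 1:10000 than at 1:40000 were 34 (49.3%) and higher 10, with a median of -0.31, against 29.0% and 28.3% of all tested genes. The lists differed. Of 23 tested mitochondrial and ketone genes, 14 (60.9%) fell at 1:10000 against control and 4 rose. Of 12 tested further PPAR targets, 5 (41.7%) fell there and 3 rose, nearer to the 36.2% of all tested genes that fell. At 1:40000 against control 3 of these 12 (25.0%) fell and 2 rose. Between the dilutions 4 (33.3%) were lower at 1:10000 and 1 was higher. RXRA, the partner with which PPARs bind DNA, averaged 76 ± 4.41 CPM at 1:10000, 176 ± 9.88 CPM at 1:40000 and 194 ± 11.8 CPM in the controls (SD, n = 5 each). RXRA fell at 1:10000 against control (log2 fold change -1.35 ± 0.06, adjusted p = 1.15e-15) and was not called at 1:40000 (log2 fold change -0.14 ± 0.06, adjusted p = 0.0568). It was also lower at 1:10000 than at 1:40000 (log2 fold change -1.22 ± 0.06, adjusted p = 1.05e-13).

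Between the dilutions, PPARGC1B, a coactivator of mitochondrial genes, was lower at 1:10000 (log2 fold change -0.99 ± 0.12, adjusted p = 1.2e-07), whereas the deacetylase SIRT1 was higher (log2 fold change 0.53 ± 0.07, adjusted p = 1.1e-06). Among peroxisomal genes AMACR, the racemase of branched-chain acyl-CoA, was lower (log2 fold change -1.11 ± 0.15, adjusted p = 1.27e-06), ACOX2, the branched-chain oxidase, was lower (log2 fold change -1.35 ± 0.18, adjusted p = 8.54e-07) and PEX11A, which takes part in peroxisome division, was lower (log2 fold change -0.84 ± 0.25, adjusted p = 0.00666). ACAD10, an acyl-CoA dehydrogenase family member, was lower (log2 fold change -1.18 ± 0.17, adjusted p = 2.98e-06) and HILPDA, a lipid droplet protein that inhibits triglyceride lipase, was lower (log2 fold change -0.77 ± 0.14, adjusted p = 5.78e-05). BDH1, the mitochondrial hydroxybutyrate dehydrogenase, was called higher (log2 fold change 2.26 ± 0.77, adjusted p = 0.016), but it had only 0.391 ± 0.658 CPM at 1:10000 and 0.0384 ± 0.0536 CPM at 1:40000, against 11 ± 1.60 CPM in the controls.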

How the data were processed

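Poly(A) RNA-seq of 15 Caco-2 libraries (5 per group) was analysed. The deposited values are raw gene counts made by the authors, not normalised; the file headers name HISAT2 (rinse aid) and RNA STAR (controls), while the submitters' processing notes list STAR 2.7.9a along with featureCounts, cutadapt and DESeq2 1.32.0, on build GRCh38. Annotation release and strand setting are not given in the sources used here. Files were joined on 60557 Ensembl identifiers without version; copies on the Y pseudoautosomal regions (6273 counts in all) were left out. Genes were filtered by group (filterByExpr), scaled by TMM and tested in a single fit over the 3 groups with edgeR 4.0.16 quasi-likelihood in R 4.3.3, with adjustment over 13157 genes; CPM use TMM library sizes. The procedure was tested on simulated counts in which few genes changed, in 1 group at a time. That setting does not test the scaling where most genes are called, as at 1:10000 against control (71.0%). Values in every library are printed for all 4 transcription factors, the 2 members of each role with the largest change at 1:10000 against control and against 1:40000, and members called in opposite directions; up to 3 genes are named per wider list, and a gene which that rule chose is not reported here. Members and lists were chosen with earlier results of these data known. Overlaps and lengths come from GENCODE 29, promoters from RefSeq GRCh38.p14. Alternatives were upper-quartile scaling, scaling from unchanged gene models, DESeq2 1.42.0, no filter, a replicate block, each library left out, 1:40000 replicates 1 and 2 left out, the compared groups alone and a tested fold of 1.2.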

Additional observations from a re-analysis of the deposited data

Results flagged for a closer look

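Of 93 sets of 5 libraries (31 members in 3 groups), 4 held a library whose gap to its nearest neighbour was more than 0.71 of the group's range; chance flags about 1 in 20 such sets. At 1:40000, ECHS1 in replicate 1 was 268 CPM, below the other libraries at 310.5 to 317 CPM. ECI2 in the same library was 30.1 CPM, above the others at 24.3 to 26.0 CPM. ECI1 in 1:40000 replicate 5 was 108 CPM, against 91.5 to 94.6 CPM in the others, and ECI1 in control replicate 1 was 66.5 CPM, against 73.4 to 74.9 CPM. No explanation was tested.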

How the results depend on the processing

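Depth bounds the scarce members most: CREB3L3 rested on 3 to 6 counts in each 1:10000 library, and PDK4 and ANGPTL4 did not pass the filter. Of 744 values of single members under 8 other settings, 676 kept direction and side of the threshold, 37 lost the call, 26 gained it and 5 changed sign; of 930 with a library left out, 865 kept both, 42 lost, 20 gained and 3 changed sign. The values that changed sign, 0 of them called either way, were ETFA at 1:10000 against control (-0.00336 without control replicate 4, -0.0506 without 1:10000 replicate 1, range -0.0506 to 0.0533 with any library left out), HADHA at 1:40000 against control (0.00633 with upper-quartile scaling, 0.0319 with no filter), FABP1 at 1:40000 against control (-0.0135 without 1:40000 replicate 2, range -0.0135 to 0.101 with any library left out, -0.0021 without 1:40000 replicates 1 and 2 together), ACADS there (-0.0240 without both) and ACADVL at 1:10000 against 1:40000 (0.0461 without both). Members called higher at 1:40000 against control numbered 8 with upper-quartile scaling, 8 with no filter, 9 with the replicate block, 2 without 1:40000 replicates 1 and 2 and 2 when a fold of at least 1.2 was tested; the cause was not tested. That stricter test left 1 member higher at 1:10000 against control and 1 at 1:10000 against 1:40000. Members lower under it numbered 20 at 1:10000 against control, 9 at 1:40000 against control and 18 between the dilutions, against 23, 13 and 26. Between the dilutions ACSL5, ACADS, ECHS1, HADHA, HADHB, ACAA2, ACAT1, ETFDH and HSD17B4 lost their call under it. It called 3667 and 4499 genes at 1:40000 against control and at 1:10000 against 1:40000, against 6858 and 7542. With no filter 1 member was higher at 1:10000 against 1:40000. Restricting the set to the 14 tested members without overlap, pseudogene or changed model, a choice made after seeing the data, gave by fewer genes 9 lower at 1:10000 against control, 3 lower at 1:40000 against control, and 1 higher and 12 lower at 1:10000 against 1:40000. With 1 library left out at a time, 1:10000 against control gave 9053 to 9376 genes, 1 to 2 members higher and 20 to 25 lower; 1:40000 against control gave 6254 to 6800 genes, 3 to 6 higher and 10 to 14 lower; 1:10000 against 1:40000 gave 7075 to 7531 genes, 2 to 3 higher and 23 to 26 lower. Libraries with the same replicate number did not all deviate together (r of -0.0503 to 0.281, not above 0.1 in every pair). Pairs that include a 1:40000 library had r of 0.0453 to 0.281, and the others -0.0503 to 0.0579. In 13 of 30 comparisons, each among 5 libraries, r was highest with the own number. The numbers were not taken to pair the libraries, but these values do not exclude a pairing. The replicate block, which ended 0 member calls and added 10, 6 of them at 1:40000 against control (PPARA, ACSL1, CPT1A, ACADVL, HADH and DECR1), gave 9592, 7314 and 8012 called genes in the 3 comparisons and 25, 14 and 27 members lower. DESeq2 called 2 members higher and 23 lower, 4 and 13, and 2 and 25 in the 3 comparisons.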

Other observations

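Among the wider list, some genes of fatty acid handling were called higher than control at both dilutions; the genes of this paragraph are named after their values were seen. SLC27A1, a fatty acid transport protein, averaged 8.35 ± 1.60 CPM at 1:10000, 10.6 ± 2.95 CPM at 1:40000 and 2.99 ± 0.988 CPM in the controls, and rose at 1:10000 (log2 fold change 1.47 ± 0.24, adjusted p = 7.47e-06) and at 1:40000 (log2 fold change 1.81 ± 0.22, adjusted p = 4.45e-07). ACSL4, the synthetase that prefers polyunsaturated chains, averaged 101 ± 10.7 CPM at 1:10000, 123 ± 14.7 CPM at 1:40000 and 68.8 ± 8.43 CPM in the controls (SD, n = 5 each), and rose at 1:10000 (log2 fold change 0.55 ± 0.09, adjusted p = 8.12e-06) and at 1:40000 (log2 fold change 0.84 ± 0.09, adjusted p = 3.15e-08). ACSL3, the synthetase of lipid droplets, rose at 1:10000 (log2 fold change 0.65 ± 0.08, adjusted p = 4.05e-07) and at 1:40000 (log2 fold change 0.31 ± 0.08, adjusted p = 0.00406). UCP2, a mitochondrial inner membrane carrier, averaged 171 ± 17.7 CPM at 1:10000, 204 ± 21.8 CPM at 1:40000 and 121 ± 11.3 CPM in the controls and rose at both dilutions, at 1:10000 (log2 fold change 0.50 ± 0.08, adjusted p = 8.12e-06) and at 1:40000 (log2 fold change 0.75 ± 0.08, adjusted p = 4.36e-08). OXCT1 and PHYH were also called higher at both dilutions. The lipase PNPLA2, which starts the breakdown of droplet triglyceride, rose at 1:10000 (log2 fold change 0.54 ± 0.08, adjusted p = 1.71e-06) and was not called at 1:40000 (log2 fold change 0.19 ± 0.08, adjusted p = 0.0508). Catalase, CAT, averaged 51 ± 9.19 CPM at 1:10000, 86.2 ± 7.61 CPM at 1:40000 and 101 ± 15.1 CPM in the controls and fell at 1:10000 (log2 fold change -0.98 ± 0.12, adjusted p = 2.3e-07), with -0.23 ± 0.11 at 1:40000 (adjusted p = 0.0868).

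RXRB and DECR2 of the wider list had almost no counts in the rinse aid libraries at either dilution but were plainly present in the controls. RXRB, another partner of the PPARs, averaged 0.0252 CPM at 1:10000, 0.0023 CPM at 1:40000 and 13 CPM in the controls. DECR2, the peroxisomal dienoyl-CoA reductase, averaged 0, 0.0171 and 5.85 CPM in that order of groups. Further genes of the list were far below control in both rinse aid groups. Among them were BDH1, given above, ACOT4 at 0.117, 0.246 and 2.20 CPM, and MLYCD at 1.38, 2.66 and 26.7 CPM. Exposure and file set cannot be told apart for these genes, and no tested member of the set of 33 showed such a loss. CD36, FABP2 and RXRG were listed at 0 in every library.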
